A study of Homo sapiens with 3 samples.

Results

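Epithelial and mesenchymal marker genes were followed in HEK293 cells, an adherent line derived from human embryonic kidney. The 9 members were EPCAM, CDH1, KRT8, KRT18, KRT19, VIM, CDH2, SNAI2 and ZEB1, taken by symbol from 26209 symbols in the expression tables. They were selected on the EPCAM level, which was higher in both edited clones than in the control, so their values against the control are given as a description, with no test. All 9 averaged 1 FPKM or more across libraries, as did 12577 of the 26209 symbols. FPKM are fragment numbers scaled to transcript length and sequencing depth, so levels of different genes can be set side by side.

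The series holds 2 libraries of partial KANK1-KO cells, which are the numbered clones 114 and 174, and 1 library of HEK293 cells of control genotype and no treatment. The clones were made with a plasmid that expresses Cas9 together with a guide that targets KANK1 directly downstream of its start codon; KANK1 encodes a scaffold protein of the cell cortex. The title asks whether a reduced KANK1 dose takes part in centrosome defects. All cells were grown in the same serum-containing medium. Each edited library stands for 1 clone and the labels give the control no vector, so the edit, the transfection and the cloning cannot be told apart. The only replicates are the 2 clones, and whether they were separate cultures beyond their numbers is not stated.

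Epithelial cells hold to each other through E-cadherin and EPCAM and carry keratin filaments, while mesenchymal cells carry vimentin filaments and N-cadherin. In the transition between these states, transcription factors of the SNAI and ZEB families bind E-box sequences and repress epithelial genes such as CDH1. HEK293 cells are known to express genes of both states.

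KANK1 itself was at 3.63 FPKM in clone 114 and 3.43 FPKM in clone 174, against 4.49 FPKM in the control; an edit near the start codon can leave the transcript countable. Genes at or above 1 FPKM numbered 12573 in clone 114, 12434 in clone 174 and 12330 in the control. From the FPKM that 1 fragment adds to low genes, the depth was estimated at about 16800000 fragments in clone 114, 17000000 in clone 174 and 16400000 in the control. Of 8 embryonic kidney markers 6 reached a mean of 1 FPKM, while PAX8 was at or below 0.0684 FPKM in every library. PAX2 was at 0.298 FPKM in clone 114 and 1.33 FPKM in clone 174, against 0.368 FPKM in the control. These 6 had a median log2(FPKM + 1) difference from the control of -0.05 in clone 114 and 0.25 in clone 174. Squamous epithelial markers summed to 0.0272 and 0.0269 FPKM in the clones and 0.0502 FPKM in the control, with KRT5, KRT14 and IVL at 0 in all 3. The 4 endothelial markers summed to between 0.130 and 0.420 FPKM and the 4 blood markers to between 0.230 and 0.456 FPKM, with PECAM1, PTPRC and HBB at 0 throughout. The 6 fibroblast markers summed to 3.86 and 5.90 FPKM in the clones and 3.51 FPKM in the control, with COL1A2 at 0 throughout. Of the gut and liver epithelial markers AFP was at 0 throughout. VIL1 and ALB were at 0 in both clones and at 0.0241 and 0.0299 FPKM in the control. CDX2 was at 12.4 and 5.27 FPKM in the clones and 17.0 FPKM in the control. The 6 neuronal markers, of which NEFL, NEFM and INA are also intermediate filament genes listed below, summed to 76.2 and 117 FPKM in the clones and 121 FPKM in the control, with STMN2 at 0 throughout. The 4 tested had a median log2(FPKM + 1) difference from the control of -0.52 in clone 114 and -0.05 in clone 174. The part of these marker levels in the results was not tested.

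EPCAM, the gene of an epithelial adhesion and signalling protein, was at 23.0 FPKM in clone 114 and 31.2 FPKM in clone 174, against 6.35 FPKM in the control. Both clones lay above the control, at 27.1 ± 5.77 FPKM (SD, n = 2), which is 3.62-fold and 4.91-fold the control level. On the log2(FPKM + 1) scale the difference was 1.71 in clone 114 and 2.13 in clone 174. The authors' deposited table, which uses no added constant, lists log2 ratios of 1.86 and 2.30 for EPCAM. These levels stood for an estimated 514 to 589 fragments in clone 114, 707 to 810 in clone 174 and 138 to 158 in the control, depending on the transcript assumed. In rank, EPCAM lay above 77.3% of the genes detected in clone 114 and 83.3% of those in clone 174, against 49.8% in the control. In bulk RNA, more EPCAM-expressing cells and more EPCAM RNA per cell cannot be told apart.

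CDH1, which encodes E-cadherin, was at 5.51 FPKM in clone 114 and 7.60 FPKM in clone 174, against 3.99 FPKM in the control. Again both clones lay above the control, 1.38-fold and 1.90-fold its level, and clone 174 was the higher of the pair as for EPCAM. The CDH1 difference was 0.38 in clone 114 and 0.78 in clone 174 on the log2(FPKM + 1) scale, smaller than that of EPCAM in each clone. CDH1 lay above 45.8% of the genes detected in clone 114, 54.4% of those in clone 174 and 41.7% in the control. CDH2, the N-cadherin gene, was many times as abundant in all 3 libraries.

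**Figure D1:**
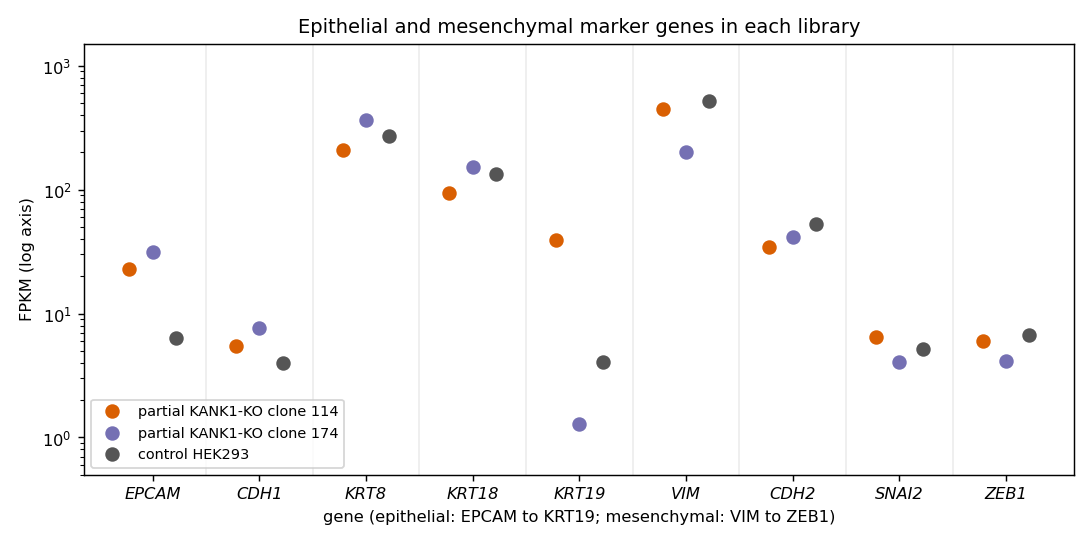
FPKM of the 9 marker genes on a log axis, with 1 point per library in the order clone 114, clone 174 and control. EPCAM and CDH1 lie above the control in both clones, and KRT19 lies far above it in clone 114 (39.6 FPKM) and below it in clone 174 (1.29 FPKM).

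The keratin genes differed between the clones. KRT19, a type I keratin of simple epithelia, was at 39.6 FPKM in clone 114 and 1.29 FPKM in clone 174, against 4.07 FPKM in the control. The control thus lay between the clones, with clone 114 at 9.72-fold its level and clone 174 at 0.316 of it. These levels stood for about 791, 26 and 79 fragments in clone 114, clone 174 and the control. On the log2(FPKM + 1) scale the KRT19 difference from the control was 3.00 in clone 114 and -1.15 in clone 174. Between the clones the KRT19 difference, clone 174 minus clone 114, was -4.15, below that of all but 0.111% of the genes tested.

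KRT8, the type II keratin of simple epithelia, was at 208 FPKM in clone 114 and 364 FPKM in clone 174, against 273 FPKM in the control. KRT18, the type I keratin that pairs with it, was at 94.1 FPKM in clone 114 and 152 FPKM in clone 174, against 134 FPKM in the control. For both genes clone 114 was the lowest library and clone 174 the highest, and the clones lay on either side of the control. The ratio of KRT8 to KRT18 was 2.21 in clone 114, 2.39 in clone 174 and 2.03 in the control, a narrower range than that of either gene. The RefSeq gene table places KRT8 and KRT18 next to each other on chromosome 12 and KRT19 on chromosome 17. KRT19 was added to KRT18, a sum chosen after the values were seen. The ratio of this sum to KRT8 was 0.642 in clone 114, 0.421 in clone 174 and 0.507 in the control. KRT19 made up 29.6% of that sum in clone 114, 0.839% in clone 174 and 2.94% in the control. RefSeq lists 52 pseudogenes named after KRT8, 68 after KRT18 and 5 after KRT19, of which the tables hold 1 each, at 0.105 FPKM or less, so reads shared with other copies make the keratin levels uncertain.

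The sequence before a KRT8 start in RefSeq is shown because KRT8 and KRT18 had the same order of libraries. Whether KRT8 transcripts of these cells begin at this start was not tested. It is the 250 bases at chr12:52926470-52926719 on the minus strand, from RefSeq on GRCh38.p14, a later build than the hg19 named for these data.
KRT8: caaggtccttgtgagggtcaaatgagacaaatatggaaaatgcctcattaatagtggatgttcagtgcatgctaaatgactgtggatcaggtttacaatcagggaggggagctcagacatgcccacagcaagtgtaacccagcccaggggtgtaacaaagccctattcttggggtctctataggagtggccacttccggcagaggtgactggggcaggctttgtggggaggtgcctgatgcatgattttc
A pair of motifs was searched here and in the windows below, on both strands. The E-box of the SNAI and ZEB factors was searched as CACCTG and, on the other strand, as CAGGTG. The GC box of Sp factors was searched as GGGCGG and, on the other strand, as CCGCCC. These motifs do not overlap in the windows shown, and matches are in capitals. Of 35116 RefSeq windows of this length 17.5% held the E-box and 42.6% the GC box. The KRT8 window held neither.

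VIM, the vimentin gene, differed from the control more than any other mesenchymal member in clone 174, but less than CDH2 and SNAI2 in clone 114. It was at 445 FPKM in clone 114 and 201 FPKM in clone 174, against 523 FPKM in the control. Both clones lay below the control, clone 174 at 0.383 of its level and clone 114 at 0.850. The VIM difference was -0.23 in clone 114 and -1.38 in clone 174 on the log2(FPKM + 1) scale, but quantile normalization turned the clone 114 value to 0.045. VIM stayed among the most abundant transcripts, at rank 129 in clone 114, 342 in clone 174 and 132 in the control. VIM-AS1, its antisense gene, was at 1.31 and 1.73 FPKM in the clones and 0.692 FPKM in the control; whether counting used strand is not given in the sources used here.

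CDH2 was at 34.6 FPKM in clone 114 and 41.2 FPKM in clone 174, against 52.5 FPKM in the control. Both clones lay below the control, with log2(FPKM + 1) differences of -0.59 and -0.34. Set against CDH1 within each library, CDH2 was 6.27 times as abundant in clone 114 and 5.42 times in clone 174, against 13.1 times in the control. EPCAM to VIM gave ratios of 0.0517 in clone 114, 0.155 in clone 174 and 0.0121 in the control. Ratios within a library do not depend on how the libraries were scaled to each other.

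**Figure D2:**
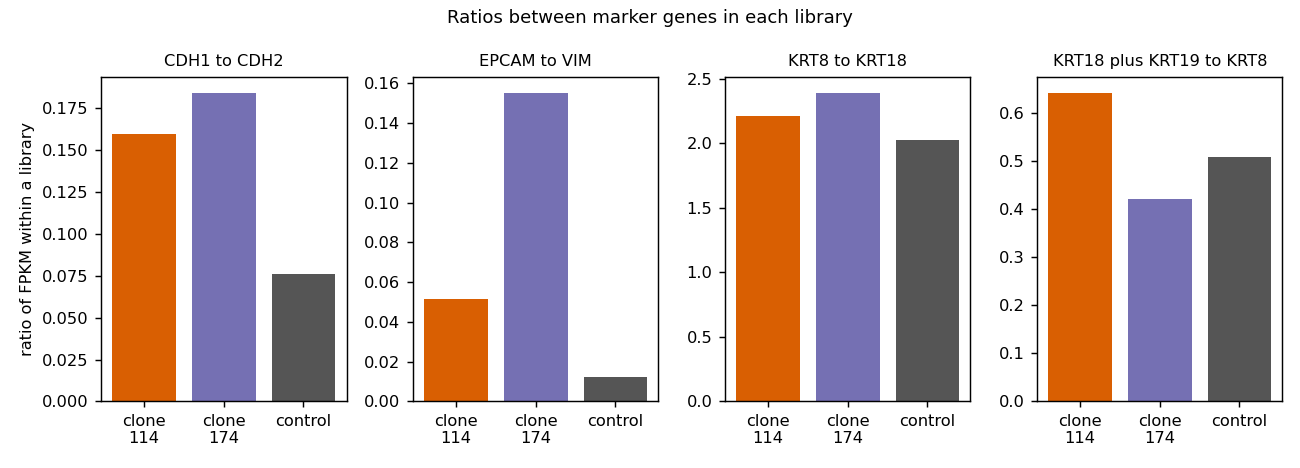
Ratios of FPKM within each library, as bars from 0 for clone 114, clone 174 and control, with no replicate of any bar. CDH1 to CDH2 is 0.159 in clone 114 and 0.184 in clone 174, against 0.0761 in the control, while KRT8 to KRT18 stays between 2.03 and 2.39.

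SNAI2, which encodes the repressor Slug, was at 6.44 FPKM in clone 114 and 4.09 FPKM in clone 174, against 5.22 FPKM in the control. The control lay between the clones, and the log2(FPKM + 1) differences were 0.26 and -0.29. ZEB1, the other repressor gene, was at 6.01 FPKM in clone 114 and 4.18 FPKM in clone 174, against 6.71 FPKM in the control. Both clones lay below the control, with ZEB1 differences of -0.14 and -0.57, but scaling to equal summed FPKM turned the clone 114 value to 0.031. For both repressor genes clone 174 was the lowest library, as it was for VIM. ZEB1-AS1, which starts beside ZEB1 on the opposite strand, was at 4.10 and 1.92 FPKM in the clones and 3.10 FPKM in the control.

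The windows before the VIM start and before the first of 7 ZEB1 starts in RefSeq are shown because VIM had the largest difference of the mesenchymal members in clone 174 and ZEB1 encodes an E-box repressor. They lie at chr10:17227991-17228240 and chr10:31318167-31318416 on the plus strand of GRCh38.p14, with motif matches in capitals.
VIM: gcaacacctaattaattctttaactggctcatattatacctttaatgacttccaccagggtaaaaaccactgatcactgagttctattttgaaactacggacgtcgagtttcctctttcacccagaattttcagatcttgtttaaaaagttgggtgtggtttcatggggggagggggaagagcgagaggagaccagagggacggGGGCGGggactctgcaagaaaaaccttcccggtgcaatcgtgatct
ZEB1: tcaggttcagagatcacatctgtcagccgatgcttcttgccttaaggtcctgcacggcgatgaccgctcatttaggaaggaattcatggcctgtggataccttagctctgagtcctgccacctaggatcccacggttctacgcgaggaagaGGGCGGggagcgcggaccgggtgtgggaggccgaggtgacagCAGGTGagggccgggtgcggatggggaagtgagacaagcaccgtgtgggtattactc
The VIM window held 1 GC box, at base 205, and no E-box. The ZEB1 window held 1 GC box, at base 152, and 1 E-box, at base 194, counted from its 5′ end. An E-box stood in 2 of the 7 ZEB1 windows. A match or its absence in a window of 250 bases is a description of these letters. Whether VIM or ZEB1 transcripts of these cells begin at the starts shown was not tested.

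In order of level the control ran VIM, KRT8, KRT18, CDH2, ZEB1, EPCAM, SNAI2, KRT19 and CDH1. In clone 114 KRT19 was the fourth member, just above CDH2 at 34.6 FPKM, and EPCAM the sixth. In clone 174 KRT8 at 364 FPKM stood above VIM at 201 FPKM, and KRT19 was the lowest member. Below KRT19 and EPCAM in clone 114, SNAI2, ZEB1 and CDH1 lay within 1 FPKM of each other, closer than the SD of 1.29 to 1.67 FPKM that the clones showed for these 3 genes.

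Over the 9 members, both clones lay above the control for 2 (EPCAM and CDH1), as for 26.1% of the 12577 genes tested. Both lay below it for 3 (CDH2, VIM and ZEB1), as for 31.8% of genes, and on either side for 4, as for 42.1%. At least 2-fold higher on log2(FPKM + 1) in clone 114 were EPCAM and KRT19, 2 of 9 members, against 1.79% of genes; lower were 0 members, against 1.36%. In clone 174 EPCAM was past 2-fold higher, 1 of 9, against 1.93% of genes, and VIM and KRT19 lower, 2 of 9, against 1.62%. These contrasts include the one that led to the choice of EPCAM, and both use the same control library, so nothing is read from the shares. Scaling the libraries to equal summed FPKM moved the median of all genes to 0.17 in clone 114. Genes past 2-fold then numbered 349 higher and 113 lower in clone 114, in place of 225 and 171, and 286 and 154 in clone 174, in place of 243 and 204. The same members were past 2-fold under this scaling.

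**Figure D3:**
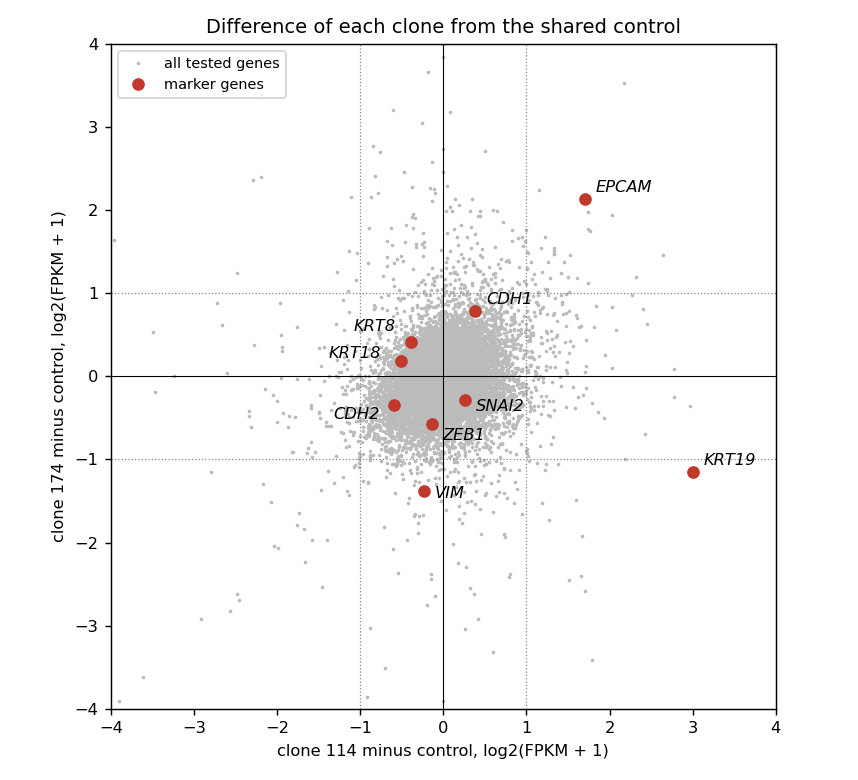
Difference from the control on log2(FPKM + 1) in clone 114 (horizontal) and clone 174 (vertical) for all 12577 genes tested (grey; the 23 beyond 4 on an axis are outside the plot) and the 9 marker genes (red); dotted lines mark 2-fold. EPCAM lies past 2-fold higher in both clones and KRT19 on opposite sides, and both axes share 1 control library.

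Clone 174 against clone 114 is not the contrast on which EPCAM was picked. The members were still chosen with earlier results of these data known, so it is not free of that choice. It has 1 library a side and no test. KRT19 and VIM were at least 2-fold lower in clone 174 than in clone 114, 2 of 9 members against 3.55% of genes, and 0 members were at least 2-fold higher, against 2.22%. KRT8 and KRT18 were 1.75-fold and 1.62-fold higher in clone 174, EPCAM 1.35-fold and CDH1 1.38-fold. SNAI2 stood in clone 174 at 0.634 and ZEB1 at 0.695 of the clone 114 level. CDH2 was 1.19-fold higher in clone 174. The epithelial members thus lay on both sides, as did the mesenchymal ones, and KRT19 had the largest difference of all 9. The median log2(FPKM + 1) difference of all genes tested was -0.007 in this contrast, and nothing is read from the shares or the directions.

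Genes of related pathways were tested on log2(FPKM + 1) with limma, in which the 2 clones against the control leave 1 residual degree of freedom. Over all 12577 genes 4 were called higher (0.0318%) and 6 lower (0.0477%) at an adjusted p of 0.05, together 0.0795%. Of 143 genes in 9 related lists 95 were tested, and 0 were called in either direction; 8 of them (8.42%) had an unadjusted limma p under 0.05, against 1.73% of all genes, but the lists were written with earlier results known, and nothing is read from these shares or from those that follow. At least 2-fold higher on log2(FPKM + 1) were 6.32% of the 95 in clone 114, against 1.79% of all genes, and 11.6% in clone 174, against 1.93%. At least 2-fold lower were 3.16% of the 95 in clone 114, against 1.36% of all genes, and 2.11% in clone 174, against 1.62%. The list medians and side counts below are from log2(FPKM + 1) differences without further scaling. Scaling to equal summed FPKM moved the clone 114 median of all genes to 0.17, so they can change with the scaling. The list medians can be set beside -0.01 in clone 114 and -0.05 in clone 174 for all genes tested. All tested genes named in them had a limma adjusted p of 1.00 except SPARC.

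Among EPCAM partners and proteases, 12 genes were tested, with a clone 114 median of 0.16 and a clone 174 median of -0.01. SPINT2, which encodes an inhibitor of the protease matriptase, was at 46.1 and 97.4 FPKM in the clones and 33.0 FPKM in the control. Its relative SPINT1 was at 14.2 and 21.4 FPKM in the clones and 12.5 FPKM in the control, and FHL2, whose protein binds the cleaved tail of EPCAM, at 16.2 and 16.0 FPKM against 12.9 FPKM. CLDN7, the claudin that binds EPCAM, was at 2.29 and 2.12 FPKM in the clones and 1.70 FPKM in the control; it was named after its values were seen.

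Among cadherins, catenins and nectins the median of 11 tested genes was 0.04 in clone 114 and 0.32 in clone 174. PVRL4, the nectin-4 gene, was at 7.49 and 4.24 FPKM in the clones and 2.12 FPKM in the control, and CTNND1, which encodes the p120 catenin that stabilises cadherins, at 35.9 and 36.3 FPKM against 26.4 FPKM. CDH4, a further cadherin gene, was at 2.38 FPKM in clone 114 and 7.82 FPKM in clone 174, against 2.28 FPKM in the control. Of 15 tested tight junction and desmosome genes, with medians of 0.07 and 0.09, F11R, a junctional adhesion molecule gene, was at 16.1 and 21.0 FPKM in the clones and 9.64 FPKM in the control. MARVELD2, the tricellulin gene, was at 7.74 and 7.33 FPKM in the clones and 4.57 FPKM in the control. Genes named by rule were picked with both clones on the same side of the control. In the tight junction and desmosome list both clones lay above it for 8 of 15 genes, against 26.1% of all genes tested. They lay below it for 3, against 31.8%.

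Only KRT10 and KRT17 of 12 further keratins reached the level tested, with list medians of 0.07 and 0.69. KRT17 was at 7.28 FPKM in clone 114 and 12.9 FPKM in clone 174, against 5.50 FPKM in the control, and KRT5, KRT14, KRT16 and KRT23 were at 0 in all libraries. Other intermediate filament and linker genes (6 tested) had medians of -0.18 and 0.49. NES, the nestin gene, was at 1.13 FPKM in clone 114 and 3.93 FPKM in clone 174, against 0.883 FPKM in the control, and INA, the internexin gene, at 9.93 and 22.3 FPKM against 7.79 FPKM. NEFL, a neurofilament gene, was at 26.0 and 41.9 FPKM in the clones and 54.6 FPKM in the control.

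Epithelial regulators (9 tested) had a clone 114 median of -0.26 and a clone 174 median of -0.27. GRHL3, a grainyhead factor gene, was at 2.69 and 3.61 FPKM in the clones and 0.780 FPKM in the control. KLF4 was at 4.49 and 5.90 FPKM in the clones and 12.4 FPKM in the control, and ESRP2, an epithelial splicing factor gene, at 10.8 and 5.80 FPKM against 13.7 FPKM. The regulators thus lay on both sides of the control. Both clones lay below it for 4 of these 9, against 31.8% of all genes tested, and above it for 1, against 26.1%. The 13 tested EMT transcription factors and corepressors, of the epithelial to mesenchymal transition, had medians of -0.17 and -0.16. Both clones lay below the control for 7 of these 13, against 31.8% of all genes tested, and above it for 1, against 26.1%. The genes named by rule were lower in both clones. TWIST1 was at 7.15 and 5.23 FPKM against 8.53 FPKM, and TWIST2 at 1.45 and 1.96 FPKM against 2.79 FPKM. The demethylase gene KDM1A was at 88.6 and 85.5 FPKM against 116 FPKM.

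Mesenchymal effectors (12 tested) had a clone 114 median of 0.31 and a clone 174 median of 0.51, above those of all genes. VIM and CDH2 were below the control. Of these 12 effectors, 6 had both clones above the control, against 26.1% of all genes tested. Only 1 had both below it, against 31.8%. SPARC, a matrix glycoprotein gene, was at 54.8 and 54.2 FPKM in the clones and 15.5 FPKM in the control (limma adjusted p = 0.233, from 0.0441 to 1.00 over 7 alternatives). MMP2, a gelatinase gene, was at 6.98 and 3.83 FPKM against 1.80 FPKM, and LOX, the collagen cross-linking enzyme gene, at 3.05 and 3.16 FPKM against 9.11 FPKM. TGF-beta pathway genes (15 tested) had medians of 0.12 and 0.11, with BMP7, a ligand gene, at 14.7 and 25.9 FPKM in the clones and 11.4 FPKM in the control. In that list ID2 was at 113 and 163 FPKM against 104 FPKM, and TGFBR3 at 6.79 and 5.29 FPKM against 7.10 FPKM.

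**Figure D4:**
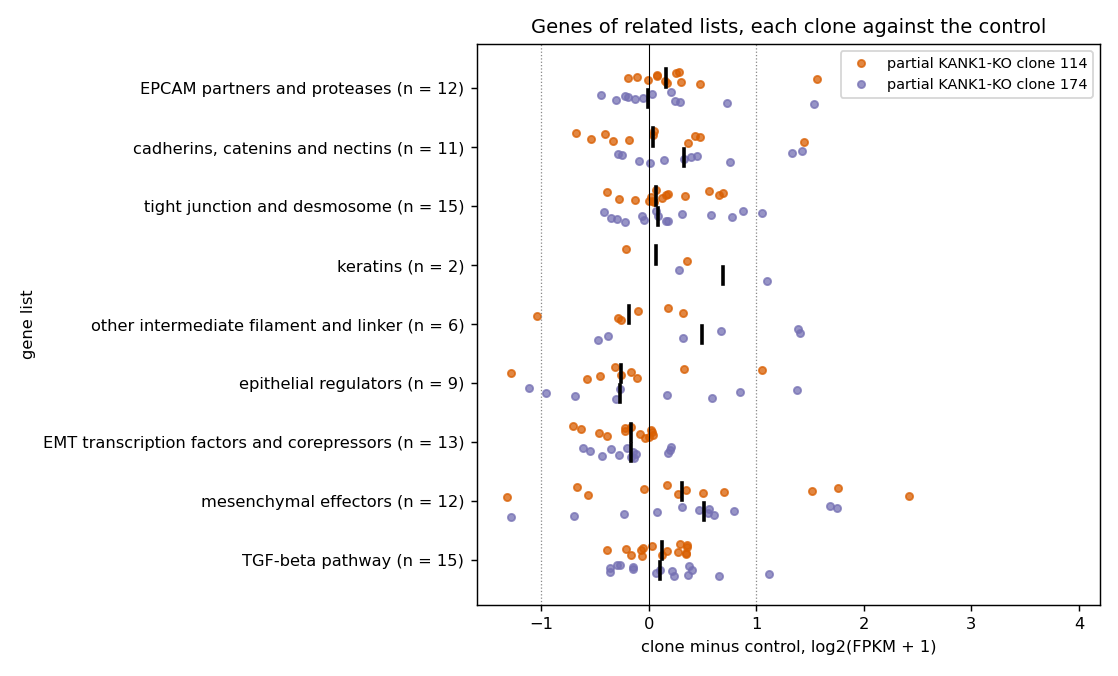
Difference from the control on log2(FPKM + 1) for each tested gene of 9 related lists, clone 114 above clone 174 in each row, with black bars at the medians and dotted lines at 2-fold. The mesenchymal effectors have medians of 0.31 and 0.51 and the EMT transcription factors and corepressors -0.17 and -0.16; 0 genes shown were called by limma.

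The 5 genes outside the members with differences nearest to those of EPCAM, by distance over its pair of log2(FPKM + 1) differences, were IAH1, SLC35D2, TCN2, SPARC and PARVB, at distances of 0.157 to 0.572. The likeness rests on 3 libraries. IAH1 was at 33.3 and 39.5 FPKM in the clones and 9.31 FPKM in the control, and PARVB at 9.42 and 21.3 FPKM against 3.70 FPKM.

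The genes beside EPCAM on chromosome 2 had smaller differences. EPCAM was picked for its difference, which lay above that of 99.7% of the genes tested in each clone. Smaller values beside it therefore follow from the choice, and nothing is read from them. Of the 5 protein-coding genes on each side in RefSeq order, 8 were tested. Their log2(FPKM + 1) differences ran from -0.09 to 0.38 over both clones, against 1.71 and 2.13 for EPCAM. Of these 8, limma called 0, where it called 0.0795% of all genes tested. CALM2, the nearest on one side, was at 400.1 and 406 FPKM in the clones and 399.8 FPKM in the control. C2orf61 and KCNK12 were below 0.1 FPKM in every library.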

How the data were processed

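Poly(A) RNA of 2 partial KANK1-KO clones and 1 control was sequenced. Per the submitters' processing notes, cutadapt 2.10, HISAT2 2.2.1 and Cuffdiff 2.2.1 were used with hg19, and no settings or gene annotation are given there. The authors deposited 1 FPKM table per library (26237 rows; 28 with a date in place of a symbol were left out). The authors also deposited, for each clone, log2 ratios of its FPKM to that of the control, made without a pseudocount. Of 9296 such rows 9286 matched the ratio computed here from the FPKM within 1e-09.

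FPKM are not counts, so no count model was used. Genes averaging 1 FPKM or more entered limma 3.58.1 (R 4.3.3) as log2(FPKM + 1) values (eBayes with a trend, Benjamini-Hochberg adjustment at 0.05). The lone control is assumed to vary like a clone, so p-values speak only of the spread among these libraries. A pseudocount of 1 understates changes of low genes. Depth was estimated from genes of at most 0.3 FPKM with 1 GENCODE release 29 transcript of 1500 bases or longer and a fragment length of 200 bases. Of these values 62.6% to 66.8% lay within 0.1 of a whole number of fragments, so fragment numbers are estimates and cover counting error only.

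Members and lists were chosen with earlier results of these data known. In each list, up to 3 tested genes with the largest mean difference, both clones on the same side of the control, were named; some genes are not reported here. Promoter windows were held for 4 members in the RefSeq table used. Alternatives covered pseudocount, filter, scaling, trend and quantile normalization.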

Additional observations from a re-analysis of the deposited data

How the results depend on the processing

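With 3 libraries and fragment estimates as low as 26 for KRT19 in clone 174, small differences are not resolved. The members past 2-fold were the same genes under 5 alternatives of pseudocount, filter and scaling. Member signs per clone changed in the cases of ZEB1 and VIM in clone 114 given above. The number of genes called by limma (4 higher and 6 lower) became 9 higher at a mean of at least 5 FPKM, 0 higher and 0 lower without a filter, 0 lower with a pseudocount of 0.1 FPKM and 3 lower with FPKM scaled to the same sum. At a mean of at least 5 FPKM, 1 list gene, SPARC, was called higher. The cause was not tested. With a pseudocount of 0.1 FPKM, genes past 2-fold numbered 416 higher and 267 lower in clone 114, 409 and 352 in clone 174, and 428 and 749 in clone 174 against clone 114. At a mean of at least 5 FPKM, where fewer genes are tested, they numbered 102 and 95, 88 and 116, and 116 and 245. Scaling to the same sum gave 349 higher and 113 lower in clone 114. Leaving out a clone leaves 1 library a side and no limma test, so the values per clone stand for it; quantile normalization of member values, and both it and limma without a trend for list calls, were added after seeing the data. No paired analysis was possible because the series holds only 1 control library.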

Other observations

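The genes with differences nearest to those of KRT19, a list chosen after its values were seen, were ACTA2, LOC102723828, PLBD1, CCL20 and RBP4. ACTA2, the smooth muscle actin gene, was at 65.7 FPKM in clone 114 and 6.68 FPKM in clone 174, against 11.4 FPKM in the control. CCL20, a chemokine gene, was at 7.11 FPKM in clone 114 and listed at 0 in clone 174, against 0.188 FPKM in the control. RBP4, the gene of a retinol carrier, was at 9.16 and 0.874 FPKM in the clones and 1.66 FPKM in the control. Clone 114 was the highest library for all 5, which follows from picking them by nearness to KRT19. Their distances from KRT19 ran from 0.734 to 1.24 on log2(FPKM + 1). The 5 genes nearest to EPCAM lay closer to it.

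Near VIM in the same sense were ZFPM2-AS1, HOXD1, PSME1, DICER1-AS1 and FOXD3. PSME1, which encodes a proteasome activator subunit, was at 121 FPKM in clone 114 and 61.9 FPKM in clone 174, against 155 FPKM in the control. BACE1, a protease gene on the list of EPCAM partners, is not among the genes near VIM and was named after its values were seen. BACE1 was at 17.5 FPKM in clone 114 and 4.73 FPKM in clone 174, against 5.27 FPKM in the control.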
